A study of Mus musculus with 8 samples.

Results

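The RNA of 6 chemokine ligand genes, Ccl1, Ccl3, Ccl4, Ccl5, Xcl1 and Cxcl10, was followed in regulatory T (Treg) cells of the mouse, which are CD4+ T cells that carry the transcription factor Foxp3 and restrain immune responses. The members were chosen by gene symbol, as ligands that T cells are known to make, but with earlier results of these data known. All 6 were found among the 52459 genes listed. All 6 were also among the 15419 genes with a mean of at least 10 that were tested, Ccl1 and Ccl4 through their stimulated libraries. The 8 libraries formed 4 groups of 2, by genotype and by stimulation. Cells were sorted as CD4+CD25hi from pooled spleens and lymph nodes of several female mice on the C57BL/6 background, which were heterozygous for Foxp3-YFPcre, an allele in which the Foxp3 gene drives the Cre recombinase. WT cells were the YFP-negative cells of these mice. DKO cells were the YFP-positive cells, in which Cre was to delete the floxed Stim1 and Stim2 genes, the sensors that open calcium channels when the stores of the endoplasmic reticulum run low (labelled Stim1 fl/f and Stim2 fl/fll with Foxp3-YFPcre). Genotype was thus bound to the Foxp3-YFPcre allele as well. Unstimulated cells were compared with cells kept for 16 h on plate-bound antibodies to CD3 and CD28, at 1 µg/ml, which engage the T cell receptor and its main costimulatory receptor. The comparisons addressed how the absence of STIM1 and STIM2, and with it of store-operated calcium entry, relates to gene expression in Treg cells before and after stimulation.

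Chemokines are small secreted proteins that guide migrating leukocytes through G protein-coupled receptors. Activated T cells are a known source of Ccl1, which binds Ccr8, and of Ccl3 and Ccl4, which are neighbouring genes. Ccl5 binds Ccr1 and Ccr3 and is typical of effector and memory lymphocytes. Xcl1 attracts cross-presenting dendritic cells through Xcr1, and Cxcl10, a classic interferon-induced gene, attracts T cells through Cxcr3. Calcium entry activates calcineurin and the NFAT factors, which act at many cytokine and chemokine genes together with AP-1 and NF-kappaB.

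Values are normalized counts, read counts per gene divided by 1 size factor per library. The libraries held 11851853 to 16306540 reads on genes, and 1 read was worth 0.759 to 1.477 normalized counts, so that 3 reads, taken as the floor, were 2.28 to 4.43 normalized counts. All unstimulated libraries shared a sequencing lane and all stimulated libraries another, so that stimulation and lane cannot be told apart, whereas both genotypes lie within each lane. The labels give no culture time for unstimulated cells, so stimulation cannot be told apart from 16 h in culture either. RNA of the targeted genes was not called lower in the libraries labelled DKO. Unstimulated Stim1 was at 1139 and 1377 normalized counts in WT and at 1538 and 1868 in DKO-labelled libraries (limma adjusted p = 0.236), and Stim2 at 906 and 908 against 904 and 744 (limma adjusted p = 0.721). Reads summed over a whole gene cannot show the loss of 1 exon, so the libraries are called DKO-labelled here. The markers of T and Treg cells were present in every library, with 6 of 6 genes above 0. Their summed level was 91902 and 85605 normalized counts in unstimulated WT and 40109 and 47805 in DKO-labelled libraries. After stimulation it was 94707 and 112665 in WT and 67927 and 85817 in DKO-labelled libraries. Without stimulation, all 6 log2 fold changes of DKO-labelled over WT libraries were negative, with a median of -0.81. The size differed by gene, with means of 36261 in WT and 11835 in DKO-labelled libraries for Ctla4 but 3359 and 3099 for Cd3e. Between unstimulated and stimulated WT, the mean of Il2ra went from 10884 to 46242, so the sums do not measure T cell content. By limma 2 of these markers, Ikzf2 and Ctla4, were called lower in unstimulated DKO-labelled libraries, while edgeR called 2 of the 6 and DESeq2 4. The call of Ikzf2 was lost when either unstimulated WT library was left out (adjusted p of 0.0969 to 0.191), and that of Ctla4 when any 1 of the 4 WT libraries was (0.0608 to 0.272). Nothing in the labels says that the 2 libraries of a group came from separate sorts, and p-values then measure only the spread between these libraries.

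The promoters of Ccl1, Ccl3, Xcl1 and Cxcl10 are shown. With stimulation, Ccl1 and Ccl3 were called higher in both genotypes and Xcl1 in DKO-labelled cells only. Cxcl10 was called lower in WT and higher in DKO-labelled cells. The promoters were taken from RefSeq on GRCm38.p6, in which 4 of the 6 members matched, while Ccl4 and Ccl5 are named only. The windows are chr11:82179813-82180062 for Ccl1, chr11:83649379-83649628 for Ccl3, chr1:164935523-164935772 for Xcl1 and chr5:92348890-92349139 for Cxcl10. Each run holds the 250 bases before the gene start, read 5′ to 3′ on the minus strand, on which all 4 genes lie. Capitals mark matches, on either strand, to the NFAT core (GGAAA), AP-1 (TGANTCA), kappaB and the interferon response core (GAAANNGAA).
Ccl1: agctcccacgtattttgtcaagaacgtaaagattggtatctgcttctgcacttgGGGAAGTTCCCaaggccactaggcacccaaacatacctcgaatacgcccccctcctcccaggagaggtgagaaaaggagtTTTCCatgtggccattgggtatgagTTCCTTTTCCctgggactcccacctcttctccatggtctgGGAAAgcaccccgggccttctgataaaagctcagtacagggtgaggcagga
Ccl3: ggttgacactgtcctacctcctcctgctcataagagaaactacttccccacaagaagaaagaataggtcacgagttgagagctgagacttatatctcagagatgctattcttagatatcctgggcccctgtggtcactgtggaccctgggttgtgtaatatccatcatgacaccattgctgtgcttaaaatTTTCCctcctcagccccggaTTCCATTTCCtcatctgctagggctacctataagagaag
Xcl1: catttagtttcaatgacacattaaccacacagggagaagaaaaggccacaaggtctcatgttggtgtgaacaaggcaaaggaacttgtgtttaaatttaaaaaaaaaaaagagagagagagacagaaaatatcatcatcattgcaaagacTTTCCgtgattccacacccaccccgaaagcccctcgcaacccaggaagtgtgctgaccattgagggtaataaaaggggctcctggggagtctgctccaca
Cxcl10: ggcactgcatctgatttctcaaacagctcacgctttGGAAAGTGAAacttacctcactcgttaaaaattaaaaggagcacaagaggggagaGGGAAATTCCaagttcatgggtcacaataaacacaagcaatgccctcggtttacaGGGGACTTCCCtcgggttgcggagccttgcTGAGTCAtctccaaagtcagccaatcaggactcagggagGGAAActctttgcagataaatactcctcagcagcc

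The NFAT core was found in all 4 of these promoters, with 3 matches for Ccl1, 2 for Ccl3, 1 for Xcl1 and 3 for Cxcl10. It is a short motif that 55.6% of the 32851 promoters in the table hold in the same window. The Cxcl10 promoter alone among the 4 held an AP-1 match, 74 to 68 bases before the start, against 6.75% of all promoters. kappaB, held by 7.25% of all promoters, was found in Cxcl10 from base 159 to 150 and as 2 overlapping matches from base 104 to 94 before the start, and in Ccl1 as 2 overlapping matches from base 196 to 186. The interferon response core, held by 7.13% of all promoters, was found in Cxcl10 from base 213 to 205, in Ccl1 from base 91 to 83 and in Ccl3 from base 39 to 31. These matches share bases with NFAT cores in Ccl1, Ccl3 and Cxcl10, as does the kappaB match of Cxcl10 at base 159. No match to the TATA box (TATAAA, held by 12.4% of all promoters) or to the T-box core (AGGTGT, held by 11.8%) was found in these 4 windows. A match describes letters and was not tested for binding.

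**Figure D1:**
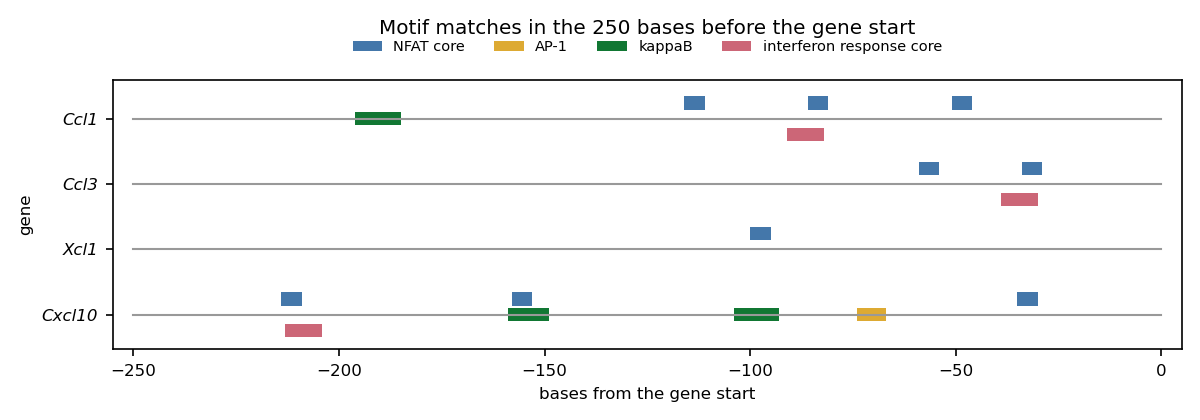
Motif matches in the promoters of 4 chemokine genes, as bars along the 250 bases before the gene start (x axis, bases from the start), with 1 line per gene. Cxcl10 holds matches to 4 kinds of motif, Ccl1 to 3, Ccl3 to 2 and Xcl1 to the NFAT core only.

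Without stimulation, Cxcl10 was the member with a called genotype difference, at a lower level in the libraries labelled DKO. The gene lies on chromosome 5 from 92775664 to 92777915 (NCBIM37, minus strand; positions of this build are not interchangeable with those of the promoters above). Unstimulated WT replicates 3 and 4 held 1581 and 1557 normalized counts of Cxcl10, and DKO-labelled replicates 1 and 2 held 186 and 228. The groups did not overlap. Of all genes tested, 27.1% likewise had both DKO-labelled values below both WT values, and 26.5% had both above. The WT mean of Cxcl10 was 7.58-fold the DKO mean. On the log2 scale the difference was -2.92 (standard error, SE, 0.32, limma adjusted p = 0.00409). The adjusted p was 0.116 without WT replicate 3 and 0.0518 without WT replicate 4, with log2 fold changes of -2.91 and -2.93. A gene was called when the adjusted p was under 0.05 and the change above 1.5-fold. Of the 6 members 1 was called lower and 0 higher, beside 3.35% and 1.38% of the 15419 genes in the test. With limma at an unadjusted p under 0.05, 3 members passed, and edgeR and DESeq2 called Cxcl10 alone. Art3, an ADP-ribosyltransferase gene on the opposite strand, spans Cxcl10 in the annotation, and the strand setting of the counting is not given in the sources used here. It was at 6.07 to 61.1 normalized counts over all libraries, at 48.6 and 47.3 in unstimulated WT and at 53.5 and 29.4 in DKO-labelled libraries.

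Ccl3 and Ccl4 lay the other way in unstimulated cells, without passing the test. Ccl3 was at 9.71 and 13.3 normalized counts in WT and at 102 and 29.4 in DKO-labelled libraries. Both DKO-labelled values of Ccl3 were above both WT values, as held for 26.5% of all genes tested. Its log2 fold change was 2.17 (SE 0.78, limma adjusted p = 0.137). Ccl4 was at 1.08 and 0 normalized counts in WT, 1 read in all, and at 21.0 and 5.34 in the DKO-labelled libraries. The ratio of pooled reads was 22.6, with an exact 95% interval of 3.69 to 929.7 that covers counting error only (limma adjusted p = 0.0988). In both genes DKO-labelled replicate 1 held more than 3 times the value of replicate 2, at ratios of 3.46 for Ccl3 and 3.93 for Ccl4. The macrophage and monocyte markers moved with these values. Their summed level over 11 genes was 448 and 468 normalized counts in WT and 10040 and 1655 in DKO-labelled replicates 1 and 2, and 7 of 10 tested markers were called higher, or 0 without either WT library and 2 without DKO-labelled replicate 1. C1qa and C1qc were at 0 in both WT libraries. Macrophages are a known source of Ccl3 and Ccl4, and the part of these markers in the values was not tested.

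Ccl5 and Xcl1 showed no called genotype difference in unstimulated cells, and their groups overlapped. Ccl5 was at 138 and 145 normalized counts in WT and at 541 and 116 in DKO-labelled libraries (log2 fold change 0.82, SE 0.79, limma adjusted p = 0.585), and the sign turned to -0.28 without DKO-labelled replicate 1. Xcl1 was at 46.4 and 31.0 in WT and at 49.3 and 12.02 in DKO-labelled libraries (log2 fold change -0.61, limma adjusted p = 0.774), or 0.37 without DKO-labelled replicate 2. Replicate 1 thus stood above replicate 2 in both genes, by 4.66-fold and 4.10-fold. Ccl1 was near the floor, with 5.40 and 0 normalized counts in WT and 0 in both DKO-labelled libraries, which allows up to 3.15 and 4.01 normalized counts. No difference of Ccl1 was detectable at this depth. In bulk RNA, fewer cells of a type that make a transcript and less of it per cell cannot be told apart, which holds for every value here.

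The RNA of CD8 T and NK cell markers, cells that are known to make Ccl3, Ccl4, Ccl5 and Xcl1, moved with the same libraries. Over 9 genes their summed level was 502 and 462 normalized counts in unstimulated WT and 1434 and 431 in DKO-labelled replicates 1 and 2, and 0 of 8 tested markers were called in any of the 4 genotype and stimulation comparisons by limma, by edgeR or by DESeq2, nor passed an unadjusted limma p under 0.05. Klra8, an NK cell receptor, was at 0 in both unstimulated WT libraries and in stimulated WT replicate 2, and Klrb1c was at 0 in stimulated DKO-labelled replicate 2. B cell markers summed to 323 and 306 in unstimulated WT and to 3220 and 744 in DKO-labelled libraries, with 2 of 8 called higher and none at 0. Neutrophil markers summed to 137 and 99.0 against 851 and 379, and dendritic cell markers to 417 and 547 against 1399 and 622, with 0 called by limma or edgeR among 5 tested in each list, 3 in each by DESeq2 and 4 in each at an unadjusted limma p under 0.05. Ly6g, a neutrophil marker, was at 0 in both unstimulated WT libraries and in all 4 stimulated ones, and Clec9a, a dendritic cell marker, in unstimulated WT replicate 3 and in 3 stimulated libraries. Ccr9 made up much of the dendritic sums, at 188 and 285 normalized counts in unstimulated WT and 696 and 385 in DKO-labelled libraries. Of the 5 dendritic genes tested, 4 had positive and 1 a negative genotype log2 fold change. In each of these lists DKO-labelled replicate 1 was the highest unstimulated library, as for Ccl3, Ccl4, Ccl5 and Xcl1. Their part in the values of the members was not tested.

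**Figure D2:**
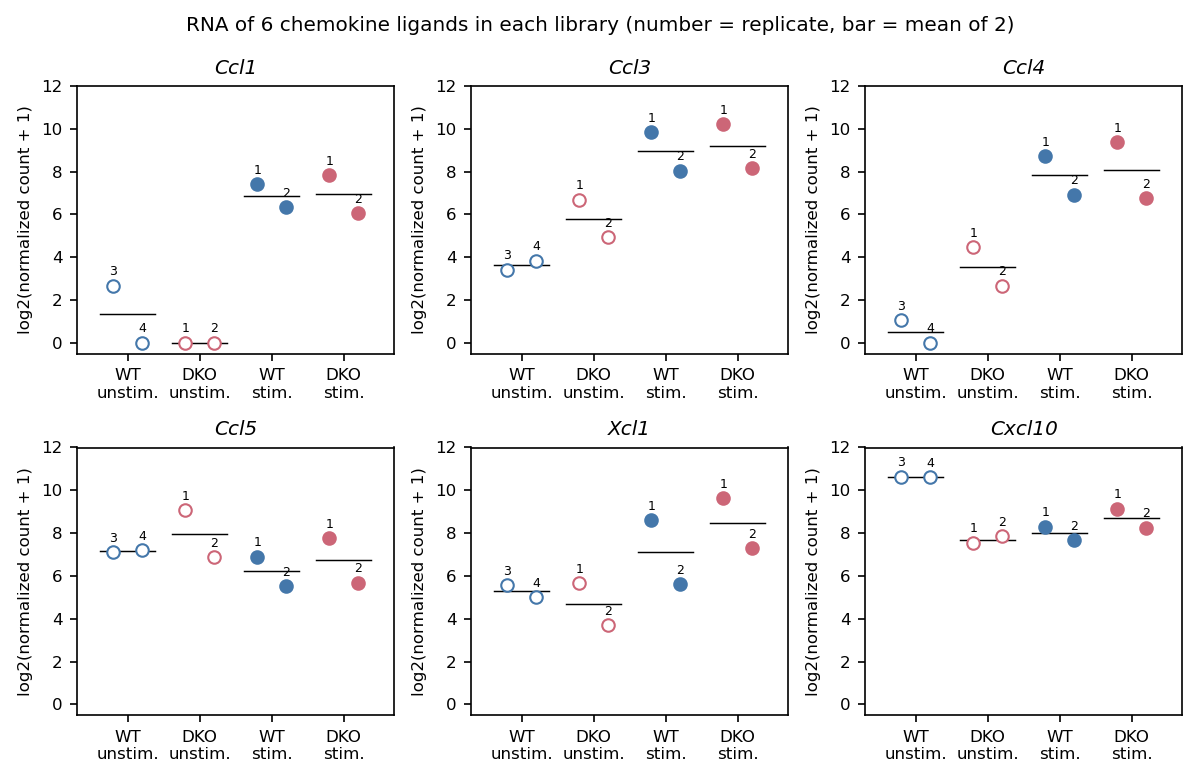
Normalized counts of the 6 ligands in each library, as log2(normalized count + 1) on the y axis, for the 4 groups on the x axis, with the replicate number beside each point and a bar at the group mean of the log2 values. Ccl1, Ccl3 and Ccl4 are higher in all stimulated libraries, at 65.9 or more normalized counts, than in any unstimulated library of the same gene, and Cxcl10 is highest in the 2 unstimulated WT libraries.

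**Figure D3:**
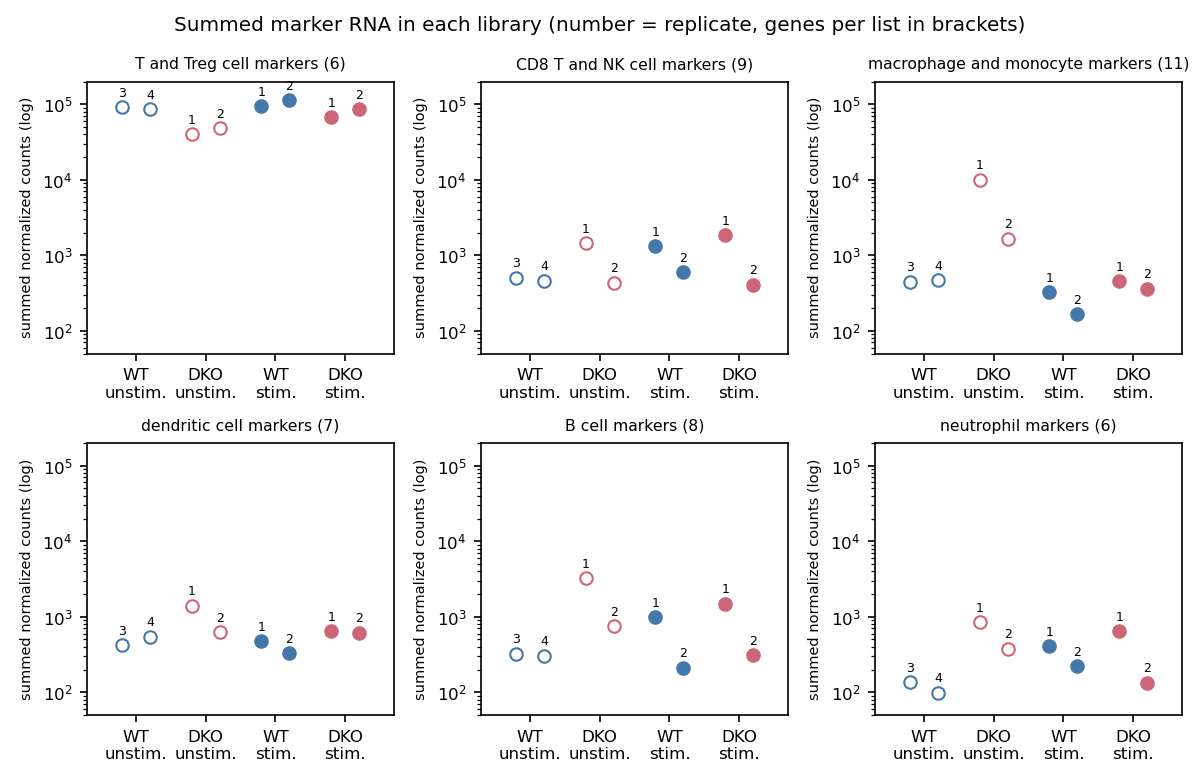
Summed normalized counts of 6 lists of cell type markers in each library (y axis, log scale), by group on the x axis, with replicate numbers beside the points and the number of genes per list in brackets. The macrophage list stands highest in DKO-labelled unstimulated replicate 1, at 10040, and the T and Treg list exceeds the other lists in all 8 libraries.

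Stimulation of WT cells was followed by higher Ccl1, Ccl3 and Ccl4 and by lower Cxcl10. Ccl1, on chromosome 11 from 81990159 to 82119192 in a gene model whose span of 129034 bases exceeds its 2371 bases of exons, reached 169 and 80.5 normalized counts, 46.2-fold the unstimulated mean of 2.7, which holds 5 reads in replicate 3 and 0 in replicate 4 and lies under the floor of both libraries. Its log2 fold change was 5.54 (SE 0.97, limma adjusted p = 0.00408). Ccl3, on chromosome 11 from 83461346 to 83462857, reached 917 and 264 normalized counts, 51.4-fold the unstimulated mean, with a log2 fold change of 5.32 (SE 0.78, limma adjusted p = 0.0021). Its neighbour Ccl4, from 83476086 to 83478185 on the opposite strand, reached 422 and 121 normalized counts. The ratio of pooled reads of Ccl4 was 432, with an exact 95% counting interval of 77.3 to 17101, against the 1 read in unstimulated WT (limma adjusted p = 0.00129). No stimulated WT value of these 3 genes overlapped an unstimulated WT one. Of all genes tested, 35.0% lay wholly above in this way and 36.0% wholly below. The log2 fold change of Ccl1 ranged from 4.20 without unstimulated WT replicate 4 to 6.88 without replicate 3. Those of Ccl3 and Ccl4 ranged from 4.42 and 6.40 without stimulated WT replicate 1 to 6.21 and 8.20 without replicate 2.

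Cxcl10 moved in the opposite direction in WT cells. It stood at 316 and 204 normalized counts after stimulation, 6.04-fold below the unstimulated mean of 1569 (log2 fold change -2.62, SE 0.32, limma adjusted p = 0.000928). Xcl1, on chromosome 1 from 166861775 to 166865658, was at 387 normalized counts in stimulated WT replicate 1 but at 47.8 in replicate 2, hardly above the 46.4 of unstimulated replicate 3. It was not called (log2 fold change 1.82, SE 1.01, limma adjusted p = 0.215), and this estimate ranged from 0.33 without stimulated WT replicate 1 to 3.31 without replicate 2. Ccl5, on chromosome 11 from 83339280 to 83344020, was at 118 and 44.8 normalized counts after stimulation, both below the unstimulated values, and was not called (log2 fold change -0.94, SE 0.79, limma adjusted p = 0.412). In all, 3 of 6 members were called higher and 1 lower, beside 10.2% and 13.1% of the genes in the test. Ccl1 and Ccl4 entered the test only through their stimulated libraries, so the count of higher members cannot be weighed against these shares. All 4 calls held with each library left out in turn.

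In the libraries labelled DKO, stimulation was followed by higher levels of Ccl1, Ccl3, Ccl4, Xcl1 and Cxcl10, 5 of the 6 members, beside 13% of all genes called higher and 12% lower. Here too Ccl1 and Ccl4 entered the test only through stimulated libraries, so the count cannot be weighed against these shares. Ccl1 went from 0 in both libraries to 226 and 65.9 normalized counts, at least 36.4-fold higher against the floor of 3 reads per library (limma adjusted p = 0.0013). Ccl3 reached 1189 and 287 normalized counts, 11.3-fold the unstimulated DKO mean (log2 fold change 3.39, SE 0.78, limma adjusted p = 0.0115). Ccl4 reached 661 and 108 normalized counts, 29.2-fold (log2 fold change 4.51, SE 0.95, limma adjusted p = 0.00806). These 3 genes therefore rose in both genotypes.

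Xcl1 reached 795 and 155 normalized counts in stimulated DKO-labelled libraries, 15.5-fold the unstimulated DKO mean (log2 fold change 3.79, SE 1.01, limma adjusted p = 0.0215). Cxcl10 reached 567 and 306 normalized counts, 2.11-fold the unstimulated DKO mean, with a log2 fold change of 1.01 (SE 0.32, limma adjusted p = 0.0424). Ccl5 was at 215 and 50.7 normalized counts, overlapping the unstimulated DKO values (log2 fold change -1.25, limma adjusted p = 0.264). With the replicate number as a block Ccl5 was called lower (limma adjusted p = 0.0362), but the labels do not say what a number marks. Of the 5 calls made without a block, those other than that of Ccl1 were lost when certain single libraries were left out. Without unstimulated DKO-labelled replicate 2, or without stimulated DKO-labelled replicate 1, the count of called members was 1 instead of 5, with limma adjusted p of 0.0745 and 0.0751 for Ccl3, 0.0509 and 0.0555 for Ccl4 and 0.130 and 0.131 for Xcl1. Without stimulated DKO-labelled replicate 1 or replicate 2, the log2 fold changes were 2.37 and 4.41 for Ccl3, 3.21 and 5.81 for Ccl4, 2.61 and 4.96 for Xcl1 and 6.06 and 7.82 for Ccl1. Cxcl10 was called without 1 of the 8 libraries, stimulated DKO-labelled replicate 2, and lost the call without each of the other libraries, with log2 fold changes of 0.57 without stimulated DKO-labelled replicate 1 to 1.46 without replicate 2.

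**Figure D4:**
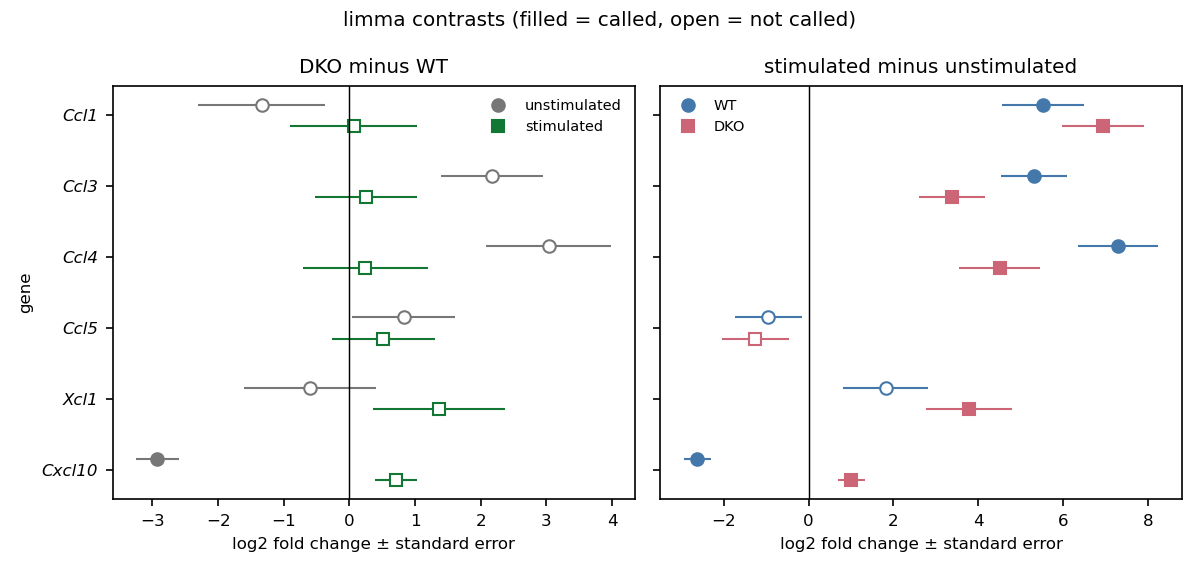
Log2 fold changes of the 6 ligands (x axis) with standard errors as bars, for DKO-labelled minus WT libraries on the left and for stimulated minus unstimulated libraries on the right, with filled points for called genes. Cxcl10 is the filled point of the left panel, at -2.92, and its points in the right panel lie on opposite sides of 0, at -2.62 in WT and 1.01 in DKO-labelled libraries.

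After stimulation, no member was called between genotypes, against 0.272% of all genes called in either direction by limma. The count was 0 of 6 by limma, by edgeR and by DESeq2, and 0 at an unadjusted limma p under 0.05. All 6 genes overlapped between the groups. Overlap was common, since 24.3% of all genes tested had both DKO-labelled values above both WT values and 23.1% had both below. The log2 fold changes of DKO-labelled over WT libraries were 0.064 for Ccl1, 0.25 for Ccl3, 0.24 for Ccl4, 0.51 for Ccl5, 1.36 for Xcl1 and 0.71 for Cxcl10. Their 95% intervals reached from -2.09 to 2.21 for Ccl1, from -1.48 to 1.97 for Ccl3 and from -1.87 to 2.36 for Ccl4, so that these data leave room for severalfold differences in either direction. Those of Ccl5 and Xcl1 reached from -1.24 to 2.27 and from -0.88 to 3.596. Cxcl10 had the narrowest interval, from -0.0012 to 1.42 (limma adjusted p = 0.364). The sign of Ccl1, Ccl3, Ccl4 and Ccl5 turned negative without stimulated WT replicate 2 or stimulated DKO-labelled replicate 1, and that of Xcl1 turned to -0.14 without stimulated WT replicate 2, while that of Cxcl10 stayed positive, from 0.27 to 1.16, with each library left out.

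The spread between the 2 stimulated libraries of a genotype was larger than the difference between genotypes for most members. Replicate 1 exceeded replicate 2 for all 6 genes in both genotypes. In WT the ratio was 2.10 for Ccl1, 3.47 for Ccl3, 3.5 for Ccl4, 2.64 for Ccl5 and 8.08 for Xcl1, and in DKO-labelled libraries 3.42, 4.14, 6.11, 4.25 and 5.12. These 5 genes were above 2-fold in both genotypes, which held for 2.65% of all genes tested. Cxcl10 stood apart from them, at 1.55 and 1.86. The labels do not say that equal numbers mark a shared sort or day.

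The summed markers of other cells were higher in replicate 1 than in replicate 2 of both stimulated groups, but single genes went either way. In WT replicates 1 and 2, Gzma was at 435 and 47.8 normalized counts and Cd8a at 220 and 15.95. Cd8b1 was at 89.6 and 131 in the same WT libraries. In DKO-labelled replicates 1 and 2, Lyz2 was at 144 and 184 and Ccr9 at 217 and 348. Replicates 1 and 2 summed to 1319 and 600 normalized counts of CD8 T and NK cell markers in WT and to 1854 and 409 in DKO-labelled libraries. B cell markers summed to 994 and 212 in WT and to 1480 and 312, and neutrophil markers to 410 and 222 and to 639 and 133. Macrophage markers were at 325 and 165 in WT and at 451 and 361 in DKO-labelled libraries, with Mrc1 and C1qa at 0 in all 4, and dendritic cell markers at 472 and 326 and at 645 and 613. No marker of these 5 lists was called between the genotypes after stimulation by limma or edgeR. At an unadjusted limma p under 0.05, 1 macrophage, 1 dendritic cell, 1 B cell, 1 neutrophil and 0 CD8 T and NK cell markers passed, and DESeq2 called 1 dendritic cell marker. The part of these markers in the levels of the ligands was not tested.

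**Figure D5:**
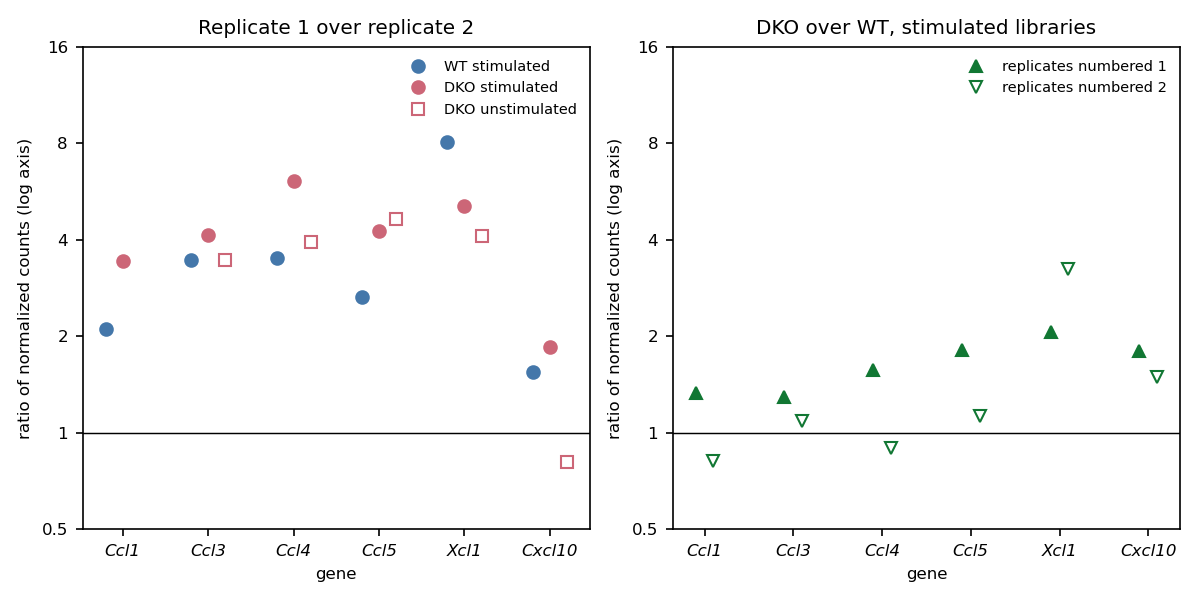
Ratios of normalized counts on a log axis for each ligand. On the left, replicate 1 over replicate 2 (filled points, stimulated; open squares, unstimulated DKO-labelled) lies above 2 for 5 ligands in both stimulated groups and at 1.55 and 1.86 for Cxcl10. On the right, the DKO-labelled over the WT library of the same number lies between 0.818 and 3.25 in stimulated cells.

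The difference of the stimulation effects between genotypes was tested as an interaction term, and no gene was called by limma, 0% of 15419 genes, nor by edgeR, whereas DESeq2 called 37 genes with a positive and 13 with a negative interaction. At an unadjusted limma p under 0.05, 704 genes had a positive and 543 a negative interaction of more than 1.5-fold. Cxcl10 had an interaction of 3.63 on the log2 scale (SE 0.45, limma adjusted p = 0.109), with an adjusted p of 0.0146 without unstimulated DKO-labelled replicate 2 and of 2.28e-10 by DESeq2, while edgeR gave 0.126 and the fits without 1 of the other libraries 0.0562 to 0.999. Both stimulated WT libraries of Cxcl10 lay below both unstimulated ones, and both stimulated DKO-labelled libraries lay above both unstimulated ones. Taken singly, the former held for 36.0% of all genes tested and the latter for 30.8%. Ccl4 and Ccl3 had interactions of -2.79 and -1.93 (limma adjusted p = 0.625 and 0.660), in the direction of a smaller rise in DKO-labelled cells that began from higher values. Xcl1 and Ccl1 had interactions of 1.96 and 1.40, and Ccl5 of -0.31, whose sign turned when any 1 of 3 libraries was left out.

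The order of the 4 groups differed between members. With 2 libraries a group, a lack of overlap was common, as the shares of all genes given above show. For Ccl1, Ccl3 and Ccl4 the means ran from DKO stimulated to WT stimulated, which overlapped, and then, with no overlap, to the unstimulated groups. Ccl3 and Ccl4 had DKO unstimulated above WT unstimulated with no overlap, and Ccl1 had both near the floor. Xcl1 had DKO stimulated above WT stimulated, with overlap. WT stimulated lay above WT unstimulated with no overlap, although its replicate 2, at 47.8, was below the 49.3 of unstimulated DKO-labelled replicate 1, and the unstimulated groups overlapped each other. For Cxcl10 WT unstimulated was highest at a mean of 1569 normalized counts, 3.596-fold above DKO stimulated at 436, and the 3 lower groups overlapped with their neighbours. Ccl5 had DKO unstimulated highest at a mean of 329 and WT stimulated lowest at 81.6, and every neighbouring pair of groups overlapped.

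Ccl3 and Ccl4 had the most alike patterns among the members. Over the 8 libraries, which share groups and lanes, Pearson's r of their log2 values was 0.990. The genes most like each member over all genes tested, as a description, were Emc6, Emc10 and Guk1 for Ccl1 (r of 0.993 to 0.990), Tmem186, Armc6 and Pkib for Ccl3 (0.992 to 0.990), and Ccl3, Armc6 and Tmem186 for Ccl4 (0.990 to 0.985). For Ccl5 they were Phka1, Exoc6 and Tifa (0.983 to 0.957), for Xcl1 Gm42602, Stau2 and Btla (0.968 to 0.948) and for Cxcl10 Copb2, Sla and Ppp4r2 (0.982 to 0.940). Per kilobase of exon, the Ccl4 level was 0.534 and 0.530 of the Ccl3 level in stimulated WT libraries and 0.645 and 0.437 in stimulated DKO-labelled libraries. In unstimulated DKO-labelled libraries the ratio per kilobase was 0.239 and 0.211, resting on 20 and 4 reads of Ccl4. The 4 ratios of stimulated cells thus stood above those of unstimulated cells.

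Of the receptors of these ligands, Ccr8 had a called genotype difference. Of 7 receptor genes 6 were tested, and their median log2 fold change of DKO-labelled over WT libraries was -1.32 without stimulation, against -0.0057 for all genes tested, with 1 called lower and 0 higher. Ccr8, the receptor of Ccl1, was at 605 and 504 normalized counts in WT and at 35.6 and 65.4 in DKO-labelled libraries (log2 fold change -3.49, limma adjusted p = 0.00416, or 0.124 without WT replicate 3). After stimulation Ccr8 was at 799 and 751 in WT and at 407 and 187 in DKO-labelled libraries, and it was called higher with stimulation in the latter (log2 fold change 2.49, limma adjusted p = 0.00216) and with each library left out. Without stimulation, Cxcr3, the receptor of Cxcl10, was at 207 and 183 normalized counts in WT against 89.1 and 25.4 in DKO-labelled libraries (limma adjusted p = 0.173), and Xcr1, the receptor of Xcl1, at 27.0 and 31.0 against 16.8 and 14.7 (limma adjusted p = 0.562). After stimulation, the median genotype difference of the receptors was -1.70, against 0.016 for all genes, with 0 of 6 called by limma or edgeR, 1 by DESeq2 and 3 at an unadjusted limma p under 0.05. Ccr3, a receptor of Ccl5, was called lower with stimulation in DKO-labelled libraries, from 499 and 64.1 to 22.2 and 4.22 normalized counts (limma adjusted p = 0.0161), a call lost without unstimulated replicate 1 or stimulated replicate 2 (adjusted p of 0.0921 to 0.0968). With stimulation the median of the 6 receptors was 0.037 in WT, with 0 called by limma, edgeR or DESeq2 and 1 at an unadjusted limma p under 0.05, and -0.67 in DKO-labelled cells, with 1 called each way.

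Of 31 other chemokine ligands, 13 were at or below 3 reads in every library and 13 were tested. The nearest relatives of Cxcl10 are Cxcl9 and Cxcl11, interferon-induced ligands of the same receptor. Cxcl11 was at 39.9 and 31.0 normalized counts in unstimulated WT and at 1.05 and 0 in DKO-labelled libraries (limma adjusted p = 0.029), and at 3.12 and 0.76 in stimulated WT libraries (limma adjusted p = 0.0204). Both calls were lost when any 1 of the 4 WT libraries was left out (adjusted p of 0.0502 to 0.363), and that between genotypes was not made by DESeq2. Cxcl9 did not have this pattern, with 6.47 and 1.5 normalized counts in unstimulated WT, 88.1 and 17.4 in DKO-labelled, 12.5 and 2.28 in stimulated WT and 161 and 14.4 in stimulated DKO-labelled libraries, and it was not called (limma adjusted p = 0.157 without stimulation and 0.325 after it). Ccl20, the ligand of Ccr6, rose with stimulation in both genotypes, from 2.16 and 7.39 to 213 and 141 normalized counts in WT (limma adjusted p = 0.00389) and from 0 and 2.67 to 132 and 33.8 in DKO-labelled libraries (limma adjusted p = 0.00316), and both calls held with each library left out. The median genotype difference of the 13 ligands was -0.63 without stimulation, or -0.25 with the 5 genes at the floor in a group set at their bound, and 0.42 after stimulation, when 0 were called by limma or edgeR, 1 by DESeq2 and 1 at an unadjusted limma p under 0.05. Their median stimulation effects were 0.12 in WT and 0.30 in DKO-labelled cells, or 0.42 in the latter with such genes at their bound. The medians of all genes tested were 0.0051 for stimulation of WT and -0.033 for stimulation of DKO-labelled cells.

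The 12 other secreted factors of activated T cells showed which products rose beside the ligands. With stimulation, 5 were called higher and 1 lower in WT, with a median log2 fold change of 1.34, and 7 higher and 0 lower in DKO-labelled cells, with a median of 2.25 or of 1.78 with genes at the floor at their bound. Il2, a growth factor of T cells, went from 17.3 and 17.7 to 1470 and 771 normalized counts in WT (log2 fold change 5.85, limma adjusted p = 0.0025) and from 19.9 and 4.01 to 2248 and 266 in DKO-labelled libraries (6.24, limma adjusted p = 0.00144). Lta and Tnf, cytokines of the tumour necrosis factor family, were also called higher in both genotypes, with log2 fold changes of 3.17 and 1.95 in WT and 2.91 and 1.52 in DKO-labelled cells. These calls of Il2, Lta and Tnf held with each library left out. Between genotypes, edgeR called 3 of the 12 factors without stimulation and 0 after it, and DESeq2 5 and 1. By limma, 4 factors were called lower without stimulation and 1 after it, with medians of -0.91 and -0.61. Of the former, the call of Areg was lost when unstimulated WT replicate 3 or 4 was left out (adjusted p of 0.0798 to 0.183), and those of Csf1 and Gzmb when any 1 of the 4 WT libraries or unstimulated DKO-labelled replicate 2 was (0.0823 to 0.363 and 0.0510 to 0.278). Il10, an inhibitory cytokine of Treg cells, was at 885 and 923 normalized counts in unstimulated WT and at 50.3 and 56.1 in DKO-labelled libraries (log2 fold change -4.06, limma adjusted p = 0.00106), a call that held with each library left out, and at 779 and 870 against 253 and 104 after stimulation (limma adjusted p = 0.0392, or up to 0.362 with a library of either genotype left out).

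Of 14 transcription factors that act at chemokine genes, 2 were called lower and 0 higher in unstimulated DKO-labelled libraries, with a median log2 fold change of -0.44. Irf4, an interferon regulatory factor induced by the T cell receptor, was at 3543 and 3498 normalized counts in WT and at 862 and 1030 in DKO-labelled libraries (log2 fold change -1.90, limma adjusted p = 0.0088, or 0.0759 to 0.161 without either WT library). The other was Nfatc1, an NFAT factor that calcineurin activates (log2 fold change -0.80, limma adjusted p = 0.048), a call lost when any 1 of 6 libraries was left out. Irf4 was called higher with stimulation in both genotypes, with log2 fold changes of 1.79 in WT and 3.32 in DKO-labelled cells (limma adjusted p = 0.00255 and 0.000186), as was Tbx21, which encodes T-bet, with 3.55 and 4.18 (limma adjusted p = 0.00425 and 0.00177). Rel, an NF-kappaB subunit, was called lower with stimulation in WT (log2 fold change -2.17, limma adjusted p = 0.00304). Klf13, a factor known to bind the Ccl5 promoter, fell with stimulation in both genotypes, by 1.87 in WT and by 1.52 in DKO-labelled cells on the log2 scale (limma adjusted p = 0.0014 and 0.00259). The stimulation calls of Irf4, Tbx21, Rel and Klf13 held with each library left out. With stimulation 2 of the 14 were called higher and 3 lower in WT, with a median of -0.39, and 3 higher and 2 lower in DKO-labelled cells, with a median of 0.34, while 0 were called between genotypes after stimulation by limma, edgeR or DESeq2 and 4 passed an unadjusted limma p under 0.05, with a median of 0.28.

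Of 12 interferon-induced genes, 1 was called lower and 0 higher in unstimulated DKO-labelled libraries, with a median log2 fold change of 0.63. The called gene was Cxcl11, and 9 of the 12 genes had positive values, so that the direction of Cxcl10 and Cxcl11 was not that of the list. After stimulation, Gbp2, Ifit1, Ifit3 and Oasl2 were called higher in DKO-labelled libraries and 0 were called lower, with a median of 1.44, calls that were each lost when stimulated DKO-labelled replicate 2 or any 1 of the 4 WT libraries was left out. Of the 12 genes edgeR called 0 and DESeq2 9 in this comparison, and 10 passed an unadjusted limma p under 0.05. Ifit3, for example, was at 12.5 and 12.2 normalized counts in WT and at 139 and 209 in DKO-labelled libraries (limma adjusted p = 0.0313, or 0.133 to 0.238 with such a library left out). With stimulation of WT cells, 7 of the 12 genes were called lower and 2 higher, with a median of -0.998, and in DKO-labelled cells 1 was called lower and 2 higher, with a median of 0.57, or 0.48 with such genes at their bound. Mx1, an antiviral GTPase, fell by 3.41 on the log2 scale with stimulation in WT (limma adjusted p = 0.00401), and Gbp2, a guanylate-binding protein, rose by 3.15 (limma adjusted p = 7.2e-05). Both calls held with each library left out, whereas the other 7 in WT were lost when any 1 of the 4 WT libraries was left out. In DKO-labelled cells the call of Gbp2 held, that of Rsad2 was lost without unstimulated replicate 1 or 2 or stimulated replicate 1 (adjusted p of 0.0587 to 0.0701), and that of Usp18 when any 1 of 7 libraries was left out (0.0528 to 0.221).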

How the data were processed

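PolyA RNA was measured in 2 libraries for each of 4 groups, taken from the labels. The signal deposited by the authors is the normalized count of each gene, its reads over a size factor of the library. Per the methods, reads were aligned to NCBIM37 with Bowtie and counted with HTSeq, whereas the submitters' processing notes name bcl2fastq 1.8.4, STAR 2.7, mm10 and DESeq2. The labels name a stranded kit and the methods an unstranded one, and the strand of counting is not given in the sources used here. 28801 of the 52459 symbols are in the GENCODE M1 annotation of NCBIM37, which gave gene positions and exon lengths. Whole reads were recovered within 0.1 read for 99.99% to 100% of values per library, with 11851853 to 16306540 reads in all.

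Values were log2 transformed after adding 1 and modelled over the 4 groups together by limma 3.58.1 with an intensity trend (R 4.3.3), 2-sided. The 15419 genes that averaged 10 or more entered. Calls needed p under 0.05 after Benjamini-Hochberg adjustment over those genes and a change above 1.5-fold. The unit differed from the counts that DESeq2, named in the methods, needs, and edgeR 4.0.16 and DESeq2 1.42.0 on recovered reads were alternatives, as were other pseudocounts, filters and scalings, a replicate block and leaving out each library. The scripts were tested on simulated data. The text names all members, list genes that were called, receptors and nearest relatives, and the 3 genes most alike to each member. The members and lists were chosen with earlier results of these data known. Results of some list genes are not reported here.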

Additional observations from a re-analysis of the deposited data

Results flagged for a closer look

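Cxcl10 is listed here because its stimulation effects in the 2 genotypes had opposite signs. Its log2 values fell with stimulation from both unstimulated to both stimulated WT libraries and rose from both unstimulated to both stimulated DKO-labelled libraries, a difference between the 2 stimulation effects of 3.63. The interaction test of limma did not call this difference (adjusted p = 0.109), nor did that of edgeR (adjusted p = 0.126), while that of DESeq2 did (adjusted p = 2.28e-10). Cxcl11 was the other interferon-induced ligand of Cxcr3 that was called. Its level was 39.9 and 31.0 normalized counts in unstimulated and 3.12 and 0.76 in stimulated WT libraries. In DKO-labelled libraries it was 1.05 and 0 without stimulation, from 0 to 1 reads, and 3.97 and 6.75 after it, from 5 to 8 reads. Cxcl9, which was not called, lay the other way without stimulation, at 6.47 and 1.5 in WT and 88.1 and 17.4 in DKO-labelled libraries. After stimulation Cxcl9 was at 12.5 and 2.28 in WT and 161 and 14.4 in DKO-labelled libraries.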

How the results depend on the processing

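Each contrast was refitted under the alternatives, 1 choice at a time, with the cause of changes not tested unless a library was left out. When single libraries were left out, the number of members called ranged from 0 to 1 for genotype in unstimulated cells (0 without WT replicate 3 or 4), was 0 for genotype in stimulated cells, ranged from 0 to 1 for the interaction (1 without unstimulated DKO-labelled replicate 2), was 4 for stimulation in WT and ranged from 1 to 5 for stimulation in DKO-labelled cells. At an unadjusted p under 0.05, 3 members passed for genotype in unstimulated cells and 1 for the interaction, and DESeq2 called 1 for the interaction. Log2 fold changes between genotypes without stimulation ranged, over such fits, from -0.28 without DKO-labelled replicate 1 to 1.93 without replicate 2 for Ccl5 and from -1.58 to 0.37 likewise for Xcl1. After stimulation they turned, without WT replicate 2 and without DKO-labelled replicate 1, to -0.47 and -0.82 for Ccl1, -0.65 and -0.78 for Ccl3, -0.66 and -1.06 for Ccl4 and -0.18 and -0.52 for Ccl5, and to -0.14 for Xcl1 without WT replicate 2, and reached 0.94, 1.27, 1.54 and 1.55 for Ccl1, Ccl3, Ccl4 and Ccl5 without DKO-labelled replicate 2 and 2.85 for Xcl1 without WT replicate 1. The interaction of Ccl5 turned to 0.80, 0.38 and 0.72 without unstimulated DKO-labelled replicate 1, stimulated WT replicate 1 and stimulated DKO-labelled replicate 2, and to -1.41 at the lowest. A replicate block gave 0 members called between genotypes in stimulated cells and 6 of 6 for stimulation in DKO-labelled cells, where Ccl5 was called lower (limma adjusted p = 0.0362), and its calls over all genes were 45 higher and 43 lower, against 25 and 17 without it, for genotype, and 2412 and 2442, against 1997 and 1855, for stimulation in DKO-labelled cells. The deviations of equal numbers correlated at 0.257 between DKO-labelled groups, 0.167 between stimulated groups and 0.114 between WT stimulated and DKO-labelled unstimulated libraries. The labels do not say what a number marks and each comparison has 2 pairs, so the numbers were not taken to pair libraries, and the unstimulated groups share none. DESeq2 gave 251 higher and 299 lower genes for genotype in stimulated cells, and edgeR and the 4 libraries alone 1 higher and 0 lower. Without stimulation, DESeq2 gave 521 higher and 817 lower genes for genotype, edgeR 131 and 353 and the 4 libraries alone 83 and 255, against 213 and 517. For stimulation in DKO-labelled cells the 4 libraries alone gave 880 and 872. A mean of at least 100 left out Ccl1. Equal totals moved the median of all genes to 0.11 for genotype without stimulation, 0.52 for stimulation in WT and 0.35 in DKO-labelled cells, and equal upper quartiles to 0.15 for the first and -0.12 for the last. Under the 3 scalings no member changed sign, and the call of Cxcl10 for stimulation in DKO-labelled cells was lost with equal upper quartiles and quantile normalization. Of 80 calls of list genes, 33 held with each library left out and 47 did not. Values at or under 3 reads, as for Ccl1 and Ccl4 in unstimulated cells, limit what the depth can show.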
